A study of Homo sapiens with 11 samples.

Results

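Bovine serum albumin (BSA) is the protein to which estradiol is coupled in E2-BSA, a conjugate used to reach estrogen receptors at the cell surface, so a culture given BSA alone serves as the carrier control. The comparison described here sets the array of MDA-MB-231 cells given BSA against the array titled control (2), of untreated cells, across 19775 genes. These are 2 of the 11 Affymetrix HG-U133 Plus 2.0 arrays of the study, 1 array a side. The MDA-MB-231 line derives from a human breast cancer and has next to no estrogen receptor alpha.

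Every culture spent 4 h with 10% charcoal-stripped serum before the agent, if any, was added for 3 h. BSA was given at 1 µM, control (2) received nothing, and the ethanol culture received 0.1% ethanol, the vehicle of estradiol. E2-BSA and estradiol were given at 1 µM, and the antagonists labelled ICI and G15 at 10 µM, each by itself or in combination with E2-BSA. The arrays fell into sets of 8 and 3 by the poly-A spike-in controls, RNAs added during labelling: their mean centred value was -0.51 for BSA, -0.50 for control (2), -0.56 to 0.10 over the set of 8, and 1.40 to 1.62 in the other control, the estradiol and the first E2-BSA array. The labels name no batch for this split. The spread used below is that of the other 6 arrays of the low set: ethanol, E2-BSA (2), ICI, G15, E2-BSA+ICI and E2-BSA+G15. No label says that arrays came from separate cultures, and no array repeats BSA, so the BSA difference has no replicate check.

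The values, taken as log2, are centred per probe set, so they show differences between arrays and no level of a gene. Each gene is the mean of its probe sets, and the median gene difference from control (2), 0.19 for BSA, was subtracted. A difference past 1 is a 2-fold difference if the log base is 2, which the sources used here do not state. Differences of 1.15 for LINC00622 and 1.09 for LTB lay just inside this threshold, and 0.95 for both UBBP2 and IL1B just outside it; on the lower side USP1 at -1.01 lay inside and SSB at -0.999 outside.

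As background, NF-kB is a family of transcription factors held in the cytoplasm by IkB proteins. Toll-like, IL-1 and TNF receptors release it through the IkB kinases. It then switches on chemokines, cytokines and adhesion molecules within hours, together with its own inhibitors, which end the response. MDA-MB-231 cells are known to secrete CXCL8 and IL6 without stimulation.

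Many of the genes with large positive differences held a short sequence that NF-kB is known to bind near their start sites. The kB-like motif GGNNTTTCC was searched on both strands from 250 bases before to 50 after the RefSeq start in GRCh38.p14; no other motif was searched. It was present in 6.26% of 35116 promoters in the RefSeq table, in 1298 of 15384 measured genes with a promoter there (8.44%), in 12 of 20 genes past 1 on the higher side (60%) and in 6 of 73 on the lower side (8.22%). In the gene lists described below, whether past 1 or not, the motif was in 8 of 13 CXC ligands with a promoter (61.5%) and 9 of 12 NF-kB feedback inhibitors (75%). It was in 3 of 4 NF-kB subunits (75%) and 5 of 17 inflammatory cytokines (29.4%). Most members of each of these lists did not pass 1. The motif was picked with the higher genes known, and a match is a description of the sequence and not a measured binding site. The stretches below are shown because they belong to chemokine, cytokine, feedback and adhesion genes described next; each reads 5′ to 3′ on the gene's strand, with the motif in capitals.
CXCL1 (chr4:73869303-73869362, + strand): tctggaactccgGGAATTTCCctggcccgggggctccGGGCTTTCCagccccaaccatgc
CXCL2 (chr4:74099225-74099284, - strand): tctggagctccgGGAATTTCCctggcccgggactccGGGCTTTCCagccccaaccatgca
CXCL3 (chr4:74038720-74038779, - strand): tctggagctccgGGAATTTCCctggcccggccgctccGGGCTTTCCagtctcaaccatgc
CXCL8 (chr4:73740453-73740512, + strand): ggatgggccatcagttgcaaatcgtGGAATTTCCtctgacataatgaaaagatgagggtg
IL6 (chr7:22727103-22727162, + strand): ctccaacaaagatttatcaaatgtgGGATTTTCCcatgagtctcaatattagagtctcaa
TNFAIP3 (chr6:137867180-137867239, + strand): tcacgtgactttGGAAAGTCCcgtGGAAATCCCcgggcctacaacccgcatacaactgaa
NFKBIA (chr14:35404796-35404855, - strand): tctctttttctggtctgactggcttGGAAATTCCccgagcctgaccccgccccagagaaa
ICAM1 (chr19:10270909-10270968, + strand): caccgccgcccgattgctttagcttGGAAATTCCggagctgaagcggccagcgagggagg
CCL20 (chr2:227813738-227813797, + strand): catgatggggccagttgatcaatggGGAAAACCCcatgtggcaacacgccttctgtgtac

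CXCL1, CXCL2 and CXCL3 each held 2 matches, at nearly the same places: the first base lay 78, 77 and 78 bases before the start for the upstream match and 53 bases before it for the downstream match in all of them. In TNFAIP3, NFKBIA, ICAM1 and CCL20 the capitals show the motif of the opposite strand. NFKBIA held a further match outside the printed stretch.

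Against control (2), 24 genes were higher by more than 1 in BSA (0.121% of those measured) and 86 were lower by more than 1 (0.435%). For 23 of the 24 the BSA value also lay above all 7 other arrays of the low set (0.116% of all genes). For 81 of the 86 it lay below them (0.41%). These genes were picked by the BSA value itself, so that place is in part given by the choice. The higher genes were led by chemokines and cytokines. Of the 24, 19 belonged to lists that hold 89 of the 19775 measured genes. These were the CXC chemokines, CC and CX3C chemokines, inflammatory cytokines, NF-kB subunits, NF-kB feedback inhibitors, and adhesion and surface targets of NF-kB. The lists were written with earlier results of these data known, so the 19 are no independent support. Of the 86 lower genes 0 belonged to them, which says little at so small a share of all genes.

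The number of genes past 1 lay within the range of the other arrays of the set. Against control (2), the other 6 arrays had 0 to 49 genes higher and 0 to 190 lower. The upper ends were single arrays, ethanol for the higher and E2-BSA+G15 for the lower genes, and the next highest counts were 2 and 64. In either direction their median was 52.5, against 110 for BSA. The 15 pairs among those 6 had 1 to 229 genes past 1 in either direction, with a median of 104. Pairs with neither ethanol nor E2-BSA+G15 had 1 to 57. The SD of the differences over all genes was 0.26 for BSA and 0.15 to 0.26 for the other 6 against control (2). What stood outside was the size of the largest difference: 5.43 in BSA, against at most 3.35 in the 15 pairs. That value is of CXCL1, read by 1 probe set. Between the control arrays, which lie in different spike-in sets, the largest difference was 4.92. The difference exceeded the whole range of the other 6 arrays for 20 of the 24 higher and 81 of the 86 lower genes. It did so for 14.67% of all genes. The median range was 0.78 over the 24 and 0.38 over the 86, below the threshold of 1 that picked them. Their shares thus follow largely from the choice.

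**Figure D1:**
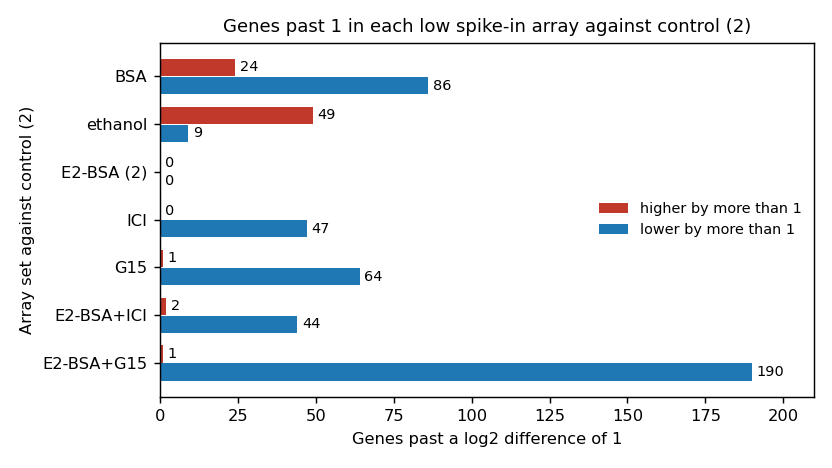
Bars give the number of genes, of 19775, that were more than 1 (log2) higher (red) or lower (blue) than control (2) in each of the 7 other arrays of the low spike-in set, 1 array each. BSA had 24 higher and 86 lower, ethanol 49 and 9, E2-BSA (2) 0 and 0, and E2-BSA+G15 1 and 190.

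The other control array bears on all of this. It is of the high spike-in set, and it exceeded control (2) by more than 1 for 12 of the 24 higher genes, with a median of 1.06 over the 24; it did so for 566 of all genes (2.86%). With that array as the reference, 463 genes were higher and 724 lower in BSA, and these included 7 of the 24 and 56 of the 86. BSA exceeded all 3 arrays of the high set for 16 of the 24, and for 35.7% of all genes. The 24 were picked by a high BSA value against control (2), so these shares are not like for like. A difference between the control cultures and one between the spike-in sets cannot be told apart, and the single BSA array allows no comparison within the high set.

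The CXC chemokines with the motif pair, CXCL1, CXCL2 and CXCL3, attract neutrophils through the receptor CXCR2, as does CXCL8 (interleukin-8). CXCL1 stood at 3.35 in BSA, -2.08 in control (2), -1.71 in ethanol, -1.33 in E2-BSA (2), -2.18 in ICI, -2.75 in G15, -1.34 in E2-BSA+ICI and -0.83 in E2-BSA+G15, and at 0.74, 1.04 and 2.62 in the other control, estradiol and first E2-BSA arrays. BSA was the highest of all 11 arrays and the low set did not come near it: the difference of 5.43 is a 43.1-fold one, and the SD of the other 6 arrays was 0.69. The CXCL1 difference was 3.83 after quantile normalization and 2.62 against the other control. CXCL3 gave the same picture at a smaller size, at 2.20 in BSA, -1.39 in control (2) and -1.66 to -0.13 in the other 6 with ethanol the highest, a difference of 3.59 or 12.1-fold.

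CXCL8 stood at 1.01 in BSA and -2.67 in control (2), and the other 6 arrays ran from -3.11 to -0.58, again with ethanol highest. Its difference was 3.68, or 12.8-fold, with 4.46 and 2.90 in its 2 probe sets. Here, however, the 3 arrays of the high set were all above BSA, at 1.88 to 2.70, and the controls differed from each other by 4.69. BSA lay outside its own set for CXCL8, but inside the distance between the controls.

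CXCL2 differed by 1.59, from -0.95 to 0.65, but its 3 probe sets did not read alike: 4.83, 0.05 and -0.10. The first carries the suffix that Affymetrix gives to probe sets that may bind related transcripts, and CXCL1, CXCL2 and CXCL3 are close in sequence, so the CXCL2 value is uncertain. The other measured CXC ligands lay between -0.06 and 0.62. CXCL10, an interferon-inducible ligand, had the 0.62 and was at -1.58 against the other control, and CXCL5, CXCL6, CXCL9, CXCL11, CXCL12, CXCL13 and CXCL14 lay between 0.0049 and 0.08. Over all 15 CXC ligands 4 were past 1, 14 were above 0, and the median was 0.08, beside 0 for all genes.

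Among the CC and CX3C chemokines CCL20, the ligand of CCR6, was past 1, at 1.11 in BSA, -0.34 in control (2) and -0.74 to -0.22 in the other 6, a difference of 1.45. In the high set the other control stood at 1.52 and the first E2-BSA array at 1.16, both above BSA, and estradiol at 0.48. The other 9 measured members ran from -0.27 to 0.42. They included CCL2 at 0.26, CCL5 at -0.13 and, as the highest of them, CX3CL1 at 0.42.

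**Figure D2:**
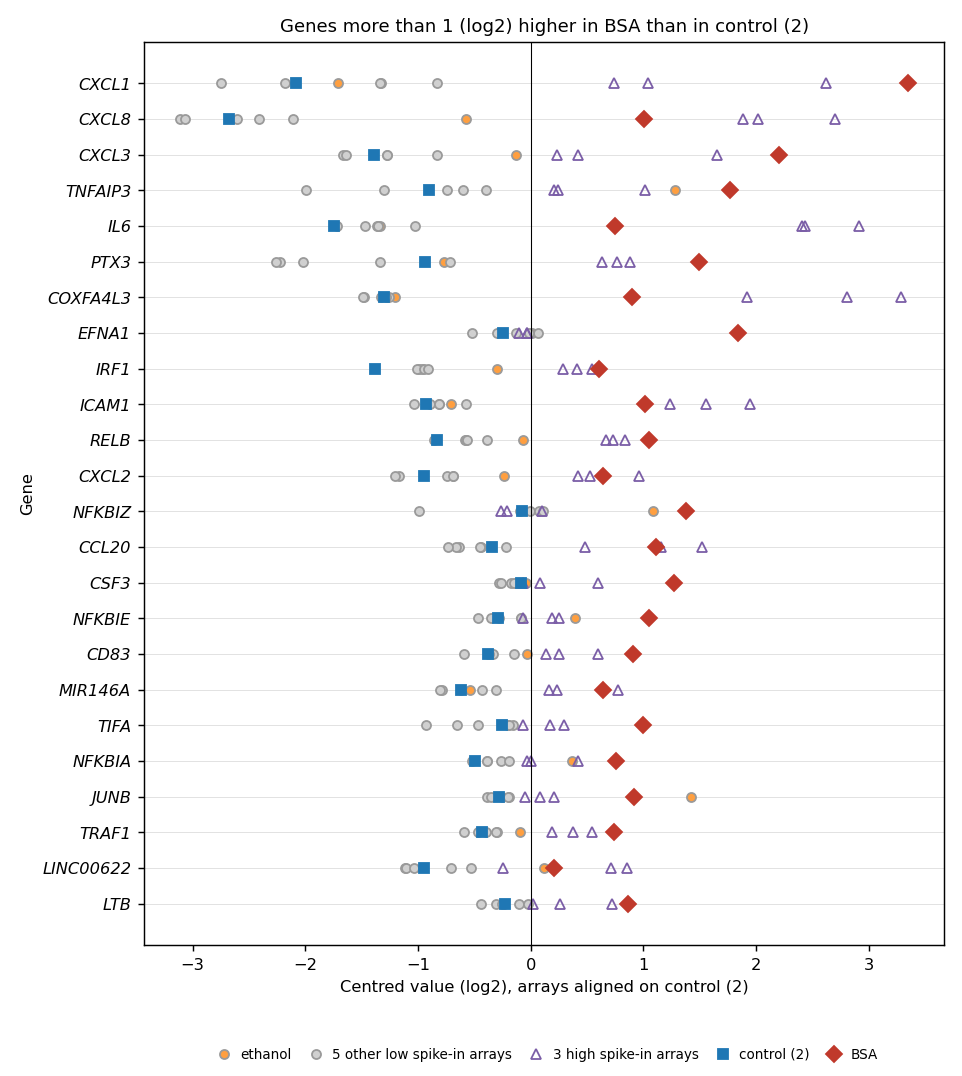
Each row is 1 of the 24 genes more than 1 higher in BSA than in control (2); the horizontal axis is the centred log2 value with every array aligned on control (2). Red diamonds are BSA, blue squares control (2), orange circles ethanol, grey circles the 5 other low spike-in arrays and open triangles the 3 high spike-in arrays, 1 array each. BSA lies right of all circles and squares in 23 rows, the exception being JUNB, and the triangles lie right of BSA for CXCL8, IL6, COXFA4L3 and ICAM1.

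The inflammatory cytokines had 3 of 22 measured members past 1, 7 past 0.5 and 18 above 0, with a median of 0.25. IL6, an acute-phase cytokine that signals through STAT3, stood at 0.75 in BSA, -1.74 in control (2) and -1.72 to -1.03 in the other 6, a difference of 2.49 or 5.62-fold. As with CXCL8, the high set exceeded it, at 2.41 to 2.91. CSF3, which drives neutrophil production, showed no such overlap: 1.27 in BSA, -0.08 in control (2), -0.28 to -0.04 in the other 6 and -0.07 to 0.60 in the high set.

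LTB, a membrane-bound member of the TNF family, differed by 1.09, with 2.49 and -0.31 in its 2 probe sets, so its mean joins readings of opposite sign. IL1B at 0.95, LIF at 0.84, IL32 at 0.65 and IL11 at 0.57 were above all 7 other arrays without passing 1. For IL11 this held for the mean of its probe sets, while 1 of them read 0.50 in BSA and 0.86 in ethanol. Against the other control IL1B and IL32 were at -0.30 and -0.38. TNF differed by 0.23, IL1A by 0.13, IL24 by -0.07, TSLP by -0.26 and IL33, the lowest of the list, by -0.45. The IL1A mean joins probe sets at 0.89 and -0.63. BSA was the highest of the 8 arrays for 13 of the 22 cytokines (59.09%), beside 16.92% of all genes.

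Of the NF-kB subunits, RELB, the partner of the p100-derived subunit in the non-canonical branch, differed most. It stood at 1.05 in BSA, -0.83 in control (2) and -0.86 to -0.07 in the other 6, a difference of 1.88. REL differed by 0.76 and NFKB1 by 0.72, both above all 7 other arrays, though NFKB1 was at -0.35 against the other control. RELA, the main activating subunit, differed by 0.07 and NFKB2 by -0.06. The NFKB2 mean joins probe sets at 0.71, -0.23 and -0.65, and the REL mean joins probe sets from -0.25 to 1.74. The median of the 5 subunits was 0.72, and BSA was the highest of the 8 arrays for 4 of them.

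The feedback inhibitors held 5 genes past 1 of 13 measured, with a median of 0.31. TNFAIP3, a ubiquitin-editing enzyme that shuts off signalling to the IkB kinases, stood at 1.77 in BSA, -0.90 in control (2) and -1.996 to 1.28 in the other 6. The upper end of that range was the ethanol array, so the spread over the low set was wide, and without it the highest was -0.40. Its 2 probe sets gave 2.61 and 2.72, and their mean difference was 2.67, or 6.35-fold.

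The other 4 were IkB proteins and an adaptor. NFKBIZ, a nuclear IkB protein that helps induce secondary genes such as IL6, differed by 1.46, from -0.08 to 1.38, with ethanol at 1.08. NFKBIE differed by 1.35 and NFKBIA, which encodes the main IkB protein, by 1.25, though the probe sets of NFKBIA gave 2.20 and 0.29. TRAF1, an adaptor of TNF receptors, differed by 1.17 with both probe sets past 1, at 1.32 and 1.01.

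The inhibitors that did not pass 1 were TNIP1 at 0.36, OTULIN at 0.31, TNIP2 at 0.26, CYLD at 0.22, NFKBID at 0.20, NFKBIB at 0.10, TNIP3 at -0.0020 and N4BP1 at -0.07. The TNIP1 mean joins probe sets at 0.98 and -0.27.

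The adhesion and surface targets had 5 of 24 measured members past 1 and a median of 0.29, and BSA was the highest of the 8 arrays for 16 (66.67%). PTX3, a secreted pattern-recognition protein, stood at 1.49 in BSA, -0.94 in control (2) and -2.26 to -0.72 in the other 6, a difference of 2.43. EFNA1, an ephrin ligand that TNF induces in endothelium, stood apart from every other array, at 1.84 in BSA against -0.24 in control (2), -0.52 to 0.06 in the other 6 and -0.11 to -0.03 in the high set. BSA alone among the 11 arrays was high for EFNA1, and the controls differed by 0.21.

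IRF1, an interferon regulatory factor, differed by 1.98, with 1.51 and 2.45 in its 2 probe sets. ICAM1, the leukocyte adhesion receptor, differed by 1.95, from -0.93 to 1.02, with 2.24, 3.31 and 0.30 in its 3 probe sets and the high set above it at 1.23 to 1.94. CD83, a membrane glycoprotein of activated immune cells, differed by 1.28.

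Other targets of the same list had smaller differences. TNFAIP2 at 0.92, PLAU at 0.70 and PTGS2 at 0.62 were above all 7 other arrays. TNFAIP2 joins probe sets at 1.78 and 0.06, and PTGS2 joins 1.39 and -0.16. VCAM1 at 0.19, SELE at -0.20, SOD2 at 0.26, CD40 at -0.07 and GCH1 at 0.06 lay near the middle of all genes. LCN2 at -0.55 and TNFAIP8 at -0.60 were below all 7 other arrays. For TNFAIP8, 1 probe set gave -1.90 and the others a median of 0.05.

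Further genes complete the 24. COXFA4L3, a small mitochondrial protein, stood at 0.90 in BSA and within -1.49 to -1.20 in the other 7 arrays, a difference of 2.21; the high set was above BSA at 1.92 to 3.29. JUNB, a subunit of the AP-1 transcription factor, differed by 1.20, but ethanol was higher still, at 1.42 against 0.91 in BSA. TIFA, an adaptor that binds TRAF6, differed by 1.25, and its 3 probe sets gave 1.65, 1.40 and 0.70.

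The 2 probe sets annotated to MIR146A, the gene of the precursor of a microRNA that targets adaptors of this pathway, gave 2.39 and 0.13. The array reads the longer transcript there, and the mature microRNA was not measured. LINC00622 differed by 1.15, with ethanol close to BSA, at 0.12 against 0.20. JUNB, TIFA, MIR146A and LINC00622 are named here after their values were seen, being outside the rule for naming genes.

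Past 1 in either direction were 0.556% of all genes, so short lists with no gene past 1 say little. Of 23 measured toll-like, IL-1 and TNF receptors and adaptors 0 passed 1 in either direction, with a median of 0.04. TLR2 was at 0.76, IRAK2 at 0.62, TLR4 at -0.07, CD14 at 0.11, LY96 at -0.06 and MYD88 at -0.17. For IRAK2, 1 probe set gave 2.25 and the others a median of -0.20, so its mean hides a probe set past 1. The 13 IkB kinase and upstream kinase genes also had 0 past 1, with MAP3K8 highest at 0.67 and a median of 0.13.

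**Figure D3:**
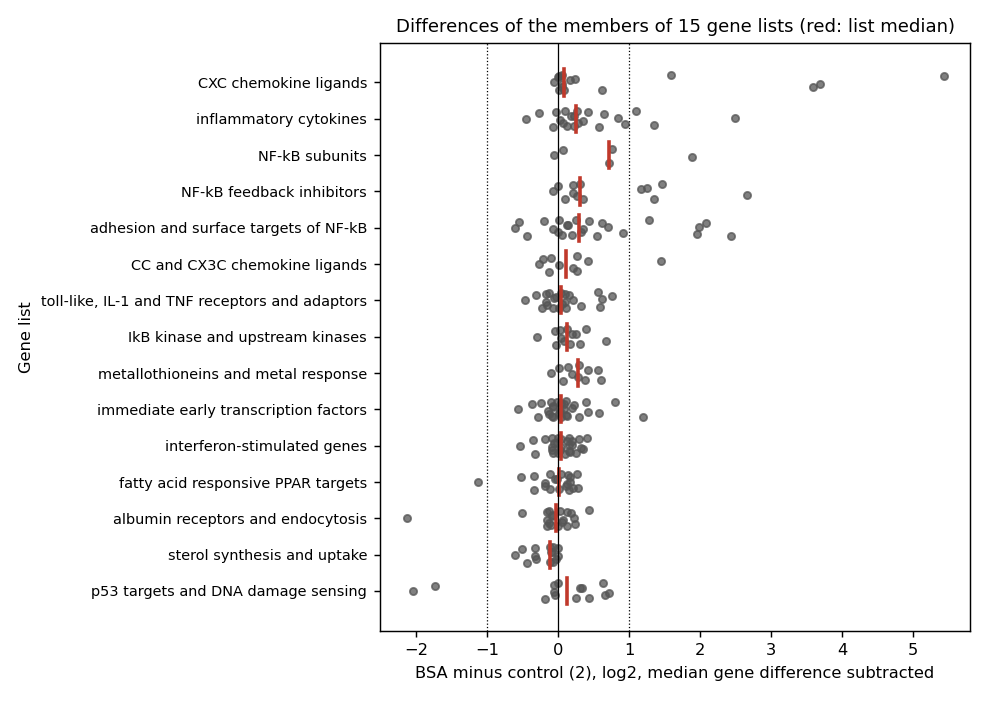
Each point is a gene, placed by its log2 difference between BSA and control (2) after subtraction of the median gene difference; rows are 15 gene lists and red bars their medians. The points beyond the dotted line at 1 lie in the chemokine, cytokine, NF-kB subunit, feedback inhibitor, adhesion target and immediate early rows, and the median is highest for the NF-kB subunits at 0.72.

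Lists on metals, lipids, albumin uptake and stress had small medians. The metallothioneins and metal response genes had a median of 0.28 with 10 of 11 above 0 and 0 past 1, led by MT1F at 0.60 and MT1G at 0.57. All 15 measured genes of sterol synthesis and uptake lay below 0, with a median of -0.11. They ran from -0.60 for SREBF1 and -0.51 for IDI1 up to -0.0020 for LSS. A single probe set led both, at -1.10 beside -0.10 for SREBF1 and -1.86 beside a median of -0.06 for IDI1. In the other 6 arrays the median of this list ran from -0.14 to -0.03, so it lay below control (2) in all of them.

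The fatty acid responsive PPAR targets had a median of 0.02, with UCP2 at -1.13 as the member past 1. The albumin receptors and endocytosis genes had a median of -0.04: FCGRT, the neonatal Fc receptor that recycles albumin, was at 0.18, SPARC at 0.01, CAV1 at -0.15, LRP2 at 0.02 and CUBN at 0.07, and GPR137B, a lysosomal membrane protein, was the member past 1 at -2.13. Interferon-stimulated genes had a median of 0.04, immediate early transcription factors 0.04, the unfolded protein list -0.03, heat shock chaperones -0.01, NRF2 targets -0.05 and apoptosis regulators 0.06.

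Ethanol was the other array with more than 2 higher genes, and its values on the immediate early list stand beside those of BSA. The median of its 29 measured members was 0.04 in BSA and 0.55 in ethanol, both against control (2), which the 2 comparisons share. In BSA, FOS was at -0.56, EGR1 at -0.29, JUN at 0.05 and MYC at -0.07, and JUNB was the 1 member past 1. Ethanol exceeded control (2) by more than 1 for 7 of the 24 genes that were higher in BSA: CXCL8, CXCL3, TNFAIP3, IRF1, NFKBIZ, JUNB and LINC00622. Over all 19775 genes ethanol did so for 49. Since both differences subtract control (2), a low value there raises both, and the part of this in the overlap was not tested. The ethanol array differed from control (2) by 0.38 for CXCL1, 0.41 for IL6, 0.17 for PTX3, 0.26 for EFNA1 and 0.04 for CSF3.

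E2-BSA contains the same carrier, with estradiol coupled to it, and was given at the same labelled concentration and time. In the E2-BSA (2) array, of the same spike-in set, 0 genes were past 1 against control (2) in either direction. For the 24 genes it differed from control (2) by -0.21 to 0.75, with a median of 0.11 and CXCL1 the highest. Taken directly, BSA exceeded E2-BSA (2) by 4.67 for CXCL1, 3.47 for CXCL3, 3.42 for CXCL8, 2.22 for IL6 and 1.78 for EFNA1, and by 0.73 for LINC00622, the smallest of the 24. Over all genes 26 were higher and 67 lower in BSA than in E2-BSA (2). The other E2-BSA array, in the high set, stood at 2.62 for CXCL1, so the E2-BSA arrays differed from each other there by more than BSA differed from the nearer of them. With 1 array each in the low set, a difference between the agents and a difference between single arrays cannot be told apart.

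Of the 86 lower genes, 6 were in any of the 32 lists (6.98%), beside 515 of all genes (2.6%): GPR137B, PPP1R15B, UCP2, PFKFB3, XPC and DDB2. The largest was ZNF266, a zinc finger protein, at -2.58 in BSA, -0.02 in control (2), -0.23 to 0.15 in the other 6 and 0.12 to 0.22 in the high set, a difference of -2.56. PPP1R15B, a regulatory subunit that directs dephosphorylation of eIF2alpha, differed by -2.24, from -0.33 to -2.57, and GPR137B by -2.13, from -0.41 to -2.54. For these, BSA was the lowest of all 11 arrays, with the other 10 at or above -0.57.

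ISCU, the scaffold of iron-sulfur cluster assembly, differed by -2.08 and XPC, which recognises damage in nucleotide excision repair, by -2.04. MLF2 differed by -2.02, PSMG1, a proteasome assembly chaperone, differed by -1.9995, NXN, nucleoredoxin, by -1.99, TOR1B by -1.97 and LMAN2L by -1.96. NEDD8, a ubiquitin-like modifier, differed by -1.84 and DDB2, which acts with XPC in damage recognition, by -1.73. PFKFB3, a regulator of glycolysis, differed by -1.61.

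LINC00597 differed by -1.87, with control (2) the highest of the 11 arrays at 1.16, and by -1.25 against the median of the 7 other low arrays. The other 6 stood at 0.43 to 0.71, while the high set, at -1.20 to -0.82, lay below the -0.71 of BSA. BSA was below all 3 arrays of the high set for 75 of the 86 lower genes, and for 35.6% of all genes. The 86 were picked by a low BSA value against control (2), so these shares are not like for like. Of the p53 and DNA damage list only XPC and DDB2 were past 1, while CDKN1A was at 0.72, TNFRSF10B at 0.66 and RRM2B at 0.63, and the list's median was 0.13.

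**Figure D4:**
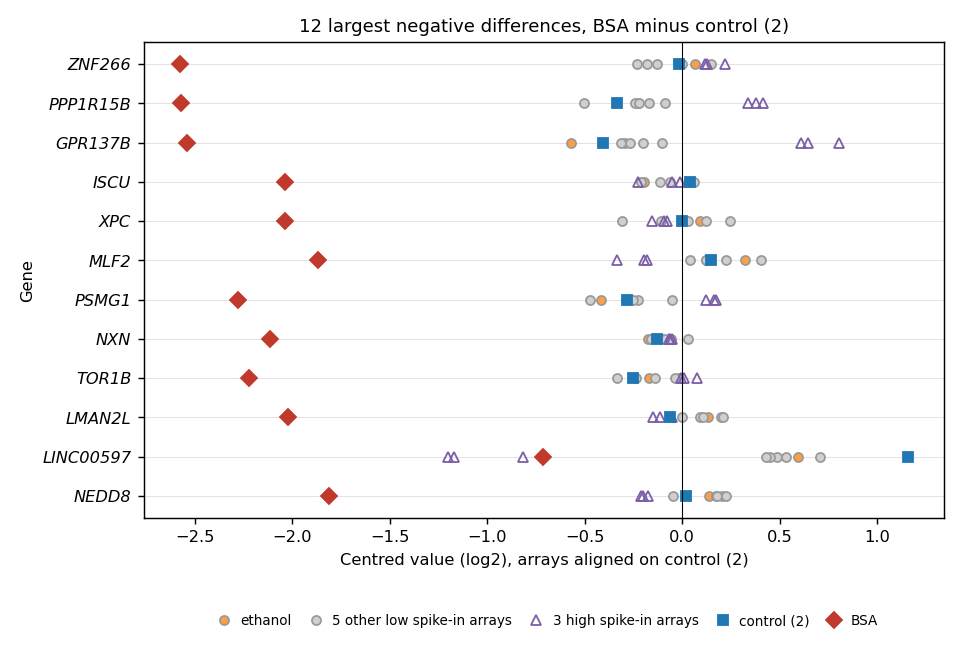
Rows are the 12 genes with the largest negative difference between BSA and control (2); the horizontal axis is the centred log2 value with arrays aligned on control (2), and symbols are as in the plot of the higher genes. BSA (red diamonds) lies at or below -1.81 in 11 rows with the other 10 arrays between -0.57 and 0.81, and in the LINC00597 row the open triangles lie left of BSA.

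The higher and lower genes differed in how many probe sets read them. Of the 86 lower genes 63 were read by 1 probe set (73.3%), of the 24 higher genes 13 (54.2%), and of all genes 46.8%. At the level of probe sets, 57 were higher by more than 1, and of the 44 whose gene had other probe sets, 23 had another one past 1 in the same direction (52.3%). On the lower side 482 were past 1, and of 419 with other probe sets 24 had another one past 1 (5.73%). The median of the other probe sets was 0.44 for the higher and -0.06 for the lower ones, so most single lower readings were not shared by the rest of their gene.

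The same share was taken in the other low arrays. Against control (2), the share of lower probe sets with another of the gene past 1 was 2.17% in ethanol, 3.62% in ICI, 6.23% in G15 and 2.87% in E2-BSA+ICI, but 35.8% in E2-BSA+G15, and 0 of 6 probe sets in E2-BSA (2). On the higher side the ethanol array had 37 of 80 (46.3%). Of the genes past 1 with several probe sets, all probe sets passed for 5 of 11 on the higher side, CXCL8, IRF1, NFKBIZ, TNFAIP3 and TRAF1. On the lower side this held for 2 of 23, ING2, at -2.11 and -1.08, and USP40, at -1.23 and -1.67, both named after their values were seen.

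**Figure D5:**
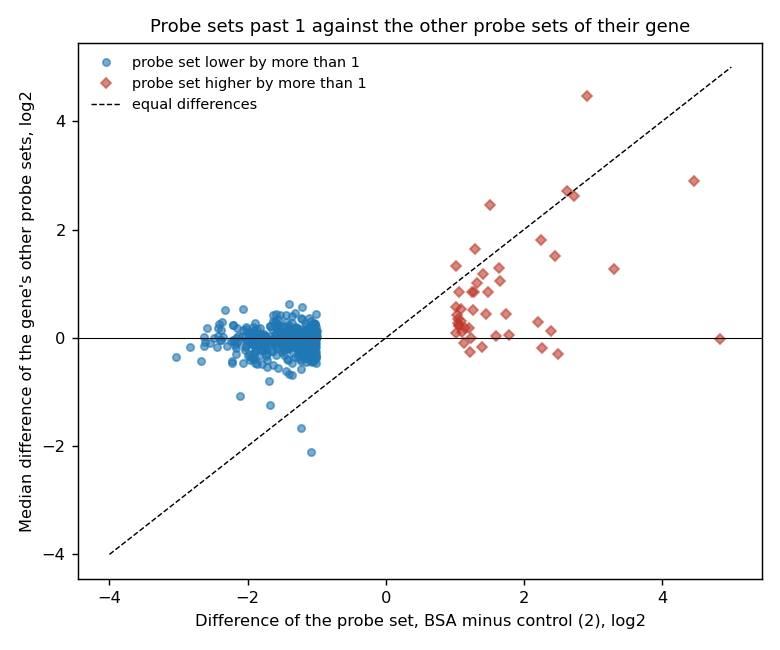
Each point is a probe set past 1 in BSA against control (2) whose gene has other probe sets; the horizontal axis is its own log2 difference and the vertical axis the median difference of the gene's other probe sets. Red diamonds (44 higher) spread toward the dashed line of equal differences, with a median of 0.44 on the vertical axis, while blue circles (419 lower) lie along 0, with a median of -0.06.

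A fit that borrows the spread of the other arrays was also made. limma fitted additive terms for ethanol, E2-BSA, ICI, G15 and BSA to the 8 low spike-in arrays, with 2 residual degrees of freedom and Benjamini-Hochberg adjustment over 19775 genes; it assumes that the antagonists add to E2-BSA without interaction and that the single BSA array varies like the rest. The terms for BSA and ethanol each fit their single array exactly. The spread thus comes only from control (2), E2-BSA (2), ICI, G15, E2-BSA+ICI and E2-BSA+G15. The ethanol array adds nothing to it, nor does its TNFAIP3 value of 1.28. The adjusted p-values carry nothing on how BSA would vary between arrays. At an adjusted p of 0.05 it called 12 genes higher (0.0607%) and 50 lower (0.253%), among them 11 of the 24 and 47 of the 86. EFNA1 had a BSA term of 2.09 with an SE of 0.15 (limma adjusted p = 0.00647), CXCL3 3.75 with 0.35 (0.0127), TNFAIP3 2.83 with 0.25 (0.00978) and RELB 1.88 with 0.19 (0.0152).

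The largest differences were not all called. CXCL1 had a term of 5.64 with an SE of 0.84 (limma adjusted p = 0.0747) and CXCL8 3.84 with an SE of 11.5 (limma adjusted p = 0.938). These SEs depended on the trend of the prior variance over the mean centred value, and centring removes intensity: without the trend they were 0.35 and 0.22, with a limma adjusted p of 0.0042 for both. IL6 went from a limma adjusted p of 0.44 to 0.0042 in the same way. On the lower side ZNF266 and ISCU (both limma adjusted p = 0.00647), XPC (0.0102) and NEDD8 (0.00647) were called, while LINC00597 was not (0.327).

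A fit of group means over all 11 arrays, in which the spread comes from the control and E2-BSA pairs that straddle the spike-in sets, called 0 genes for BSA, with 389 at an unadjusted p under 0.05. With a term for the spike-in set, an additive fit to all 11 arrays called 14 genes higher and 59 lower.

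The lists of cell type markers were also read in the BSA array. Past 1 were 0 of 8 measured leukocyte, 0 of 10 fibroblast, 0 of 13 epithelial and 0 of 14 mesenchymal markers, with medians of -0.03, -0.03, -0.06 and -0.13. Of all genes 0.556% were past 1 in either direction, so counts of 0 in lists this short say little about the material. Since values are centred, the presence of these markers in the line itself could not be read. The probe sets for the 3′ against the 5′ end of ACTB, a measure of RNA integrity and labelling, differed by 0.35 in BSA, the highest of the 8 arrays, by -0.15 in control (2) and by -0.17 to 0.20 in the other 6. For GAPDH the difference was 0.05 in BSA, -0.11 in control (2) and -0.15 to 0.08 in the other 6, with ethanol above BSA. The part of this in the differences of either direction was not tested.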

How the data were processed

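Transcripts of MDA-MB-231 cells were read on 11 Affymetrix arrays, labelled by the Affymetrix protocol, per the labels' protocols. The deposited values are centred per probe set and were taken as log2; how the authors summarised and normalized them, and the log base, are not given in the sources used here, and no intensity or detection call was used. Of 54675 probe sets, 41091 had 1 gene symbol in the platform annotation, 1801 had several, 11721 had none and 62 were controls; their means gave 19775 genes, and 9252 genes had 1 probe set. Each array was aligned on control (2) by its median gene difference. The threshold was a difference of 1. limma 3.58.1 in R 4.3.3 was tested on simulated data; tables and plots used Python 3.11.15, pandas 2.3.3 and matplotlib 3.10.9. The rule for naming genes took the 12 largest differences each way outside the range of the 7 other low arrays, and list members meeting the same conditions. It also took all members of the CXC chemokine, cytokine, NF-kB subunit and feedback lists. Other genes in the text, among them TLR2, CCL2, VCAM1, MT1F, FCGRT, FOS, CDKN1A, ADM and CCNA2, were named outside this rule. The comparison and the gene lists were chosen with earlier results of these data known. Listed genes without a single-symbol probe set were not analysed here. The precision is limited by the number of arrays.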

Additional observations from a re-analysis of the deposited data

How the results depend on the processing

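The 24 higher and 86 lower genes became 463 and 724 with the other control as reference, 61 and 213 with the mean of both controls, 40 and 54 without subtraction of the median gene difference, 12 and 34 at a difference of 1.5, 159 and 368 at 0.58, and 5 and 2 among genes whose several probe sets all passed. Quantile normalization gave 36 higher and 57 lower. Without probe sets with the suffixes _s_at, _x_at and _a_at there were 20 higher and 92 lower. Of these, 17 and 57 were among the 24 and the 86. The counts also outside the other 7 arrays became 39 higher and 53 lower without the subtraction and 30 higher and 53 lower after quantile normalization. Leaving out 1 of the other 6 arrays at a time gave 23 to 24 and 81 to 86. The limma count of 62 became 0 with group means over all 11 arrays (389 at an unadjusted p under 0.05) and 23 after quantile normalization. With the other control as reference the sign turned for 28 of 81 named genes, those with a difference from control (2) past 0.4 being CXCL8 (-0.999), IL6 (-1.65), ICAM1 (-0.92), CCL20 (-0.40), COXFA4L3 (-2.38), LINC00597 (0.11), UCP2 (0.022), IL1B (-0.30), IL32 (-0.38), NFKB1 (-0.35), CXCL10 (-1.58) and CSF1 (-1.02). It turned for 17 of 32 list medians, including the inflammatory cytokines (-0.24), NF-kB subunits (-0.0074), adhesion targets (-0.14), metallothioneins (-0.21), CXC ligands (-0.12), CC and CX3C ligands (-0.29), toll-like, IL-1 and TNF receptors (-0.33), interferon-stimulated genes (-0.73) and the p53 list (-0.05). Against the median of the 7 other low arrays, 26 genes were higher and 85 lower, 24 and 75 of them the same genes as against control (2). The cause of these shifts was not tested. No paired analysis was possible because BSA has a single array. The limit on every value is 1 array a side with no intensity, so a dim probe set cannot be told from a bright one.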

Other observations

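Of 13522 probe sets without a single gene symbol, 10 were more than 1 higher and 190 more than 1 lower in BSA than in control (2). Outside the inflammatory lists, ADM, a vasodilator peptide, was at 0.65 and above all 7 other low spike-in arrays, and BNIP3L, a mitophagy receptor, was at -0.91 and CCNA2, a cyclin, at -0.98, both below them. Each of the latter rested on 1 of 2 probe sets: -1.88 beside 0.07 for BNIP3L and -1.98 beside 0.02 for CCNA2.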
